A study of Mus musculus with 94 samples.

Results

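Chemokines and chemokine receptors were followed in 2 fat depots of 47 male mice (C57BL/6JBomTac, from Taconic), the epididymal (eWAT) and the inguinal (iWAT) white fat, as poly(A) RNA-seq counts from 94 libraries. Members were all gene symbols that open with Ccl, Cxcl, Ccr, Cxcr, Xcl, Xcr or Ackr and a digit, or with Cx3c, and that averaged at least 0.2 CPM (reads of a gene per 1e+06 counted in its library) over the 47 libraries of a depot. Among the 20411 symbols counted, 58 matched by name, and 51 of them reached that level. They were 48 in eWAT (27 ligands, 17 receptors and 4 atypical receptors) and 51 in iWAT (29 ligands, 18 receptors and 4 atypical receptors). Ccr8, Cxcl3 and Cxcl5 reached the level in iWAT and not in eWAT. Just inside it were Ccr1l1 at 0.231 CPM and Ccr8 at 0.259 CPM in iWAT and Ccr1l1 at 0.288 CPM in eWAT, and just outside it were Ccl17 at 0.199 CPM and Ccr8 at 0.153 CPM in eWAT.

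Obese mice ate the high-fat diet D12492 for 18 weeks from 10 weeks of age and were killed at 28 weeks of age. Regression mice ate it for the same time and then the low-fat diet D12450J for 2, 6 or 12 weeks, to 30, 34 or 40 weeks of age. Lean mice ate the low-fat diet throughout and were killed at 28, 30, 34 or 40 weeks of age, and each obese or regression group was set against the lean group of its own age. There were 5 obese mice and 6 mice in each of the other 7 groups. These are biological replicates by their labels, which also give both depots of a mouse its number. Mice were housed 3 to a cage, and cage membership was not given in the sources used here.

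Chemokines are small secreted proteins that direct the movement of leukocytes through G protein-coupled receptors, and they are named after the spacing of their first cysteines (CC, CXC, C and CX3C). Inflammatory chemokines are induced by cytokines and microbial products and call monocytes, neutrophils, eosinophils and effector T cells into tissue, while homeostatic ones place lymphocytes and dendritic cells in lymph nodes and other sites. Atypical receptors bind chemokines without the usual G protein signal and take them up or carry them across cells. In the adipose tissue of obese mice the pathway from Ccl2 to Ccr2 is known for drawing in monocytes that become macrophages.

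Promoters are shown for 2 pairs of neighbouring ligands: Cxcl1 and Cxcl2, the neutrophil chemoattractants that were called in both depots, and Ccl6 and Ccl9, which were higher in eWAT at all 4 times. RefSeq promoter windows (GRCm38.p6, the build mm10) held 250 bases before each gene's start, and the last 100 of them are given 5′ to 3′ on the gene's strand. In the first pair capitals mark GGAATTTCC, a motif of the type bound by NF-kappaB, which was searched in those letters on both strands. It lay in 94 of 32851 promoter windows (0.286%) and in 5 of the 38 members with a window: Ccr3, Cxcl1, Cxcl2, Cxcl3 and Cxcl10. In the second pair capitals mark GCCCTCCACTTCC, the longest run that the windows of Ccl6 and Ccl9 share. That run lay in 5 of 32851 windows (0.0152%), those of Ccl6, Ccl9, Eif5, Gm31822 and Satb1. A match in these letters is a description and not a measured binding site. Cxcl1 is at chr5:90891145-90891244 and Cxcl2 at chr5:90903799-90903898 on the plus strand, and Ccl6 is at chr11:83593088-83593187 and Ccl9 at chr11:83578637-83578736 on the minus strand.
Cxcl1: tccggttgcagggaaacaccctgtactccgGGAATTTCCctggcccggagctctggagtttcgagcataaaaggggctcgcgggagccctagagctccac
Cxcl2: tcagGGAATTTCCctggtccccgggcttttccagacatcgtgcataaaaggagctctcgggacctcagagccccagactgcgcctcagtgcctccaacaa
Ccl6: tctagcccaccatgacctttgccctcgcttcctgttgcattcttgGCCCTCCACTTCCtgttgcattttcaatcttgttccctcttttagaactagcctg
Ccl9: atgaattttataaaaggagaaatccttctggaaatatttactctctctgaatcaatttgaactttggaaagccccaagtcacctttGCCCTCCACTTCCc

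Library totals were 1.32 to 25.9 M counts in eWAT and 6.27 to 34.3 M in iWAT. The lowest total was that of replicate 2 at 2 weeks of regression in eWAT, and the next lowest in eWAT was 5.93 M. The depot labels held, since 4 mesothelial markers summed to 110 to 370.3 CPM in eWAT libraries and to 0.507 to 6.73 CPM in iWAT libraries, and 3 adipocyte markers to 4076 CPM or more in every library. Some libraries carried other tissue: 9 lymph node B cell markers summed to at least 100 CPM in 7 iWAT libraries, and 5 epididymal duct markers to at least 1000 CPM in 3 eWAT libraries, lean at 2 weeks replicate 2 (2601 CPM), lean at 6 weeks replicate 5 (5784 CPM) and obese replicate 5 (1234 CPM). In iWAT 4 skeletal muscle markers summed to between 5.01 and 33043 CPM. At 2 weeks their median sums were 30.9 CPM in regression mice and 797 CPM in lean mice. Skin markers summed to at most 137.6 CPM in iWAT. No library was left out for muscle or skin markers, and their part in the iWAT values was not tested. The lymph node libraries bear on several iWAT and depot results below, and calls lost without them, a choice made after the data were seen, are named beside those results. Without the 3 duct libraries, likewise chosen after the data were seen, Ccl3 (2.41, adjusted p = 0.0897) and Cxcl2 (2.89, adjusted p = 0.0555) in eWAT at 6 weeks were no longer called.

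In eWAT many inflammatory ligands and their receptors were higher in obese than in lean mice and were still higher 12 weeks after the return to the low-fat diet. A member was called at an adjusted p under 0.05 in edgeR's quasi-likelihood test, with Benjamini-Hochberg adjustment over all genes of the depot, and 43 of the 48 eWAT members had enough counts to be tested. In obese eWAT 19 of the 43 were higher and 2 lower than in lean eWAT, where 14% and 9.32% of the 14323 genes tested were called in those directions. After 2 weeks of regression 19 were higher and 3 lower, against 18.6% and 17.1% of all genes. After 6 weeks 11 were higher and 1 lower, against 5.49% and 1.98%. After 12 weeks 19 were higher, against 10.8% of all genes, and none was lower by edgeR or by DESeq2, with 2 lower at an unadjusted p under 0.05. The median log2 fold change of the members was 0.99, 1.11, 0.78 and 1.09 at the 4 times, while the median of all genes lay between -0.03 and 0.02. Without obese replicate 4 the count of members called in obesity was 6, without regression replicate 6 the count at 6 weeks was 2, and without regression replicate 2 or 5 it was 7. The mouse numbers fall into an earlier and a later series, which hold replicates 4 to 6 and replicates 1 to 3 of each group. The obese group had no replicate 6. In replicates 4 to 6 alone 14, 16, 0 and 0 members were called, and in replicates 1 to 3 alone 0, 7, 0 and 7, with the sign of each called member kept in both. The 14 in obesity thus rest on obese replicates 4 and 5. The shares of all genes called in these smaller fits are not given, so their counts cannot be set against all genes.

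Some members stayed above lean throughout and others did so at single times. Ccl3, Ccl6, Ccl9, Ccl11, Ccl22, Cxcl16 and Cxcr4 were among those higher at all 4 times, and Ccl8, Ccr3, Ccr7, Cxcr3 and Cxcr6 at 3 of them. By class, ligands called higher were 9, 11, 9 and 10 of the 26 tested at the 4 times, receptors 9, 8, 2 and 9 of 13, and atypical receptors 1, 0, 0 and 0 of 4. The groups did not overlap for 4 of the 21 members called in obesity, 11 of 22 at 2 weeks, 3 of 12 at 6 weeks and 1 of 19 at 12 weeks. Among all genes called the groups did not overlap for 37.1%, 35.2%, 27.1% and 8.21% at the 4 times, so the members' share was above that of all genes at 2 weeks alone.

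**Figure D1:**
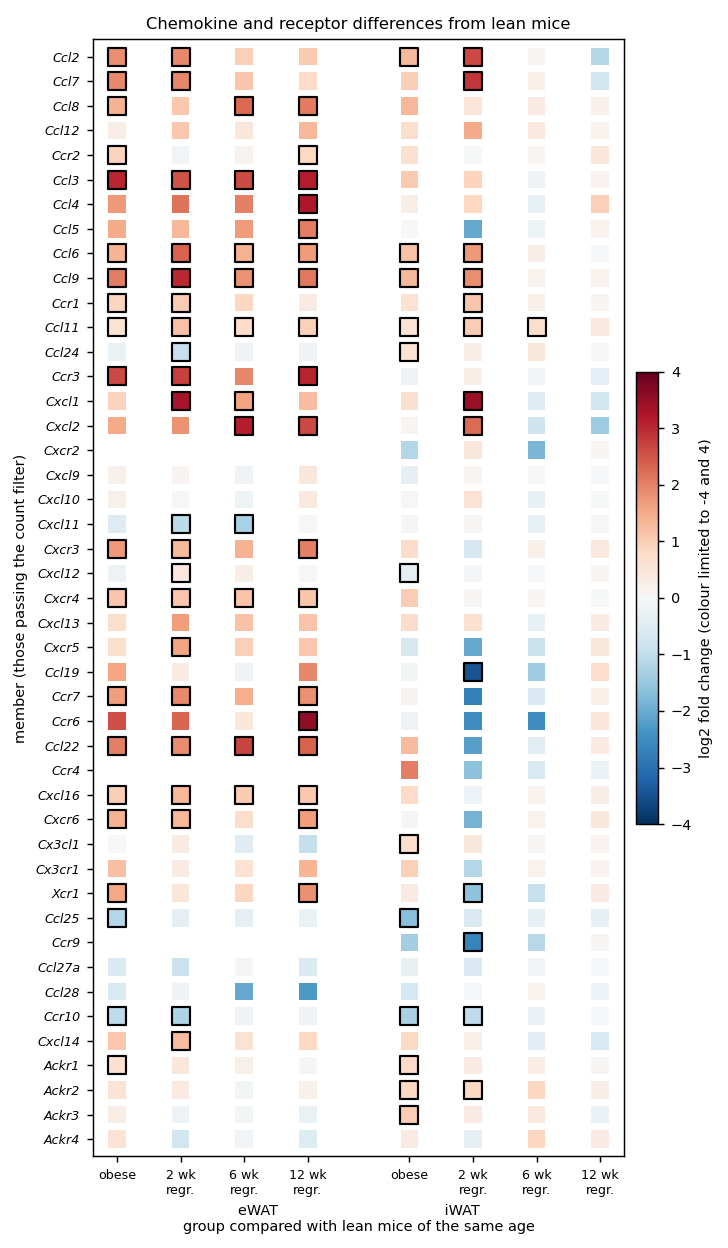
Log2 fold changes of tested members against lean mice of the same age, eWAT on the left and iWAT on the right, with the obesity time and 2, 6 and 12 weeks of regression as columns and members as rows; outlined cells passed an adjusted p under 0.05. Ccl6, Ccl9 and Ccl11 are outlined at all 4 times in eWAT, and in iWAT no cell is outlined at 12 weeks.

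Ccl6 and Ccl9 were higher than in lean mice at all 4 times in eWAT. They are rodent CC ligands of Ccr1 that macrophages make, and their promoter windows share the run GCCCTCCACTTCC. Ccl9 had 119, 233, 108, 360.5 and 54.7 CPM in obese replicates 1 to 5, against a lowest, median and highest of 25.7, 45.1 and 54.3 CPM in lean mice. All 5 obese mice stood above every lean mouse, the fifth by a narrow margin (log2 fold change 2.05 ± 0.41 SE, adjusted p = 0.000443). At 2 weeks Ccl9 ran from 99.1 over a median of 278 to 473.4 CPM in regression mice, against 30.6, 34.0 and 38.5 CPM in lean mice. The groups were far apart, and this was the strongest call of the family in eWAT (3.01 ± 0.41, adjusted p = 2.08e-06). At 6 weeks the values were 50.7, 127 and 314 CPM in regression mice and 32.0, 40.8 and 57.4 CPM in lean mice, and at 12 weeks 40.2, 199 and 220 CPM against 27.0, 33.2 and 57.1 CPM. The groups overlapped at both later times through the lowest regression mice, and Ccl9 was still called (1.79 ± 0.40, adjusted p = 0.00728, and 2.11 ± 0.40, adjusted p = 0.000882).

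Ccl6 followed the same course at levels like those of Ccl9. It had 129, 207, 150.1, 301 and 76.3 CPM in obese replicates 1 to 5, against 39.2, 71.1 and 86.2 CPM in lean mice, and obese replicate 5 alone lay within the lean range (1.36 ± 0.34, adjusted p = 0.00358). At 2 weeks it ran from 123 over 281 to 483 CPM in regression mice, against 47.1, 55.3 and 67.5 CPM in lean mice, with no overlap (2.37 ± 0.34, adjusted p = 3.91e-06). At 6 and 12 weeks its log2 fold changes were 1.40 ± 0.33 (adjusted p = 0.00918) and 1.71 ± 0.34 (adjusted p = 0.00104). Other inflammatory CC ligands of the same gene cluster were much scarcer in CPM. Ccl3, which activated macrophages secrete, had 0.435, 2.99, 0.415, 5.26 and 0.667 CPM in obese replicates 1 to 5 and at most 0.613 CPM in lean mice, so replicates 2 and 4 carried most of its increase (3.05 ± 0.89, adjusted p = 0.0109). It was higher at 2, 6 and 12 weeks too, by 2.55 ± 0.81, 2.62 ± 0.83 and 3.14 ± 0.86. Ccl4 and Ccl5, made by macrophages and by cytotoxic lymphocytes, were called at 12 weeks: Ccl4 ran from 0.216 over 1.93 to 3.00 CPM in regression mice against 0, 0.130 and 0.511 CPM in lean mice, and Ccl5 from 0.974 over 6.11 to 12.7 CPM against 1.04, 1.36 and 3.11 CPM. In both cases the groups overlapped through the lowest regression mice (3.24 ± 0.91, adjusted p = 0.0132, and 2.04 ± 0.59, adjusted p = 0.015).

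The monocyte chemoattractants Ccl2 and Ccl7, ligands of Ccr2, were called in obesity and at 2 weeks. Ccl2 had 10.1, 26.9, 5.95, 55.9 and 6.00 CPM in obese replicates 1 to 5, against 3.20, 5.23 and 9.44 CPM in lean mice, and replicates 3 and 5 lay among the lean mice (1.85 ± 0.44, adjusted p = 0.00217). After 2 weeks of regression Ccl2 ran from 6.94 over 10.8 to 25.4 CPM in regression mice, against 2.05, 3.38 and 5.25 CPM in lean mice, and no values overlapped (1.91 ± 0.44, adjusted p = 0.000723). Ccl7 differed by 1.92 ± 0.46 in obesity (adjusted p = 0.00225) and by 1.97 ± 0.46 at 2 weeks (adjusted p = 0.000832). At 6 and 12 weeks Ccl2 had log2 fold changes of 0.95 (adjusted p = 0.167) and 1.06 (adjusted p = 0.0869) and was not called. Without obese replicate 4 the log2 fold changes of Ccl2 and Ccl7 in obesity were 1.09 and 1.17, and neither was called.

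Ccl8, a CC ligand that acts through Ccr8 in mice, had its highest levels late. At 6 weeks it ran from 5.23 over 9.57 to 20.2 CPM in regression mice, against 1.27, 2.25 and 3.13 CPM in lean mice, with no overlap (2.28 ± 0.53, adjusted p = 0.00856). At 12 weeks it ran from 4.00 over 22.0 to 42.0 CPM against 3.83, 4.80 and 8.67 CPM (2.07 ± 0.50, adjusted p = 0.00486). Ccr8 itself stayed below the level set for members in eWAT, and Ccl12, another ligand of Ccr2, was not called at any time (medians of 0.332 to 1.47 CPM in obese and regression mice).

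Ccl11, the eotaxin that attracts eosinophils through Ccr3 and is made by stromal cells, moved little in fold but varied little within groups. It had 51.1, 59.5, 32.2, 70.9 and 50.6 CPM in obese replicates 1 to 5, against 24.8, 34.4 and 45.0 CPM in lean mice, and replicate 3 lay within the lean range (0.59 ± 0.19, adjusted p = 0.0225). By 2 weeks Ccl11 ran from 58.4 over 69.9 to 81.3 CPM in regression mice against 19.97, 32.3 and 40.2 CPM in lean mice, and at 12 weeks from 42.7 over 59.5 to 69.5 CPM against 23.3, 28.5 and 38.0 CPM. Neither pair of groups overlapped (1.17 ± 0.19, adjusted p = 1.34e-05, and 0.96 ± 0.19, adjusted p = 0.000965), and Ccl11 was the one member at 12 weeks with no overlap. At 6 weeks its log2 fold change was 0.78 ± 0.19 (adjusted p = 0.00966). The other eotaxin, Ccl24, went the other way at 2 weeks, with 3.72, 4.97 and 7.78 CPM in regression mice against 7.92, 11.3 and 11.8 CPM in lean mice and no overlap (-0.95 ± 0.24, adjusted p = 0.00164). Their receptor Ccr3 was scarce, at 0.435, 2.77, 0.138, 4.94 and 0.444 CPM in obese replicates 1 to 5 and at most 0.566 CPM in lean mice. It was called in obese mice (2.65 ± 0.80, adjusted p = 0.0139), at 2 weeks (2.73 ± 0.79, adjusted p = 0.006) and at 12 weeks (3.05 ± 0.79, adjusted p = 0.00804). Of 3 eosinophil markers tested in eWAT 1, 2, 0 and 1 were higher at the 4 times. Of 4 fibroblast markers 3, 3, 2 and 2 were higher, with median log2 fold changes of 0.72, 0.85, 0.58 and 0.66. The part of either list in these values was not tested.

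Cxcl1, a neutrophil chemoattractant that binds Cxcr2 and whose promoter window holds the GGAATTTCC motif, had its largest increase at 2 weeks. It had 0.327, 2.66, 1.11, 1.16 and 1.00 CPM in obese replicates 1 to 5, against 0.390, 0.544 and 1.23 CPM in lean mice, and was not called (0.93, adjusted p = 0.177). After 2 weeks Cxcl1 ran from 1.24 over 2.69 to 6.94 CPM in regression mice, against 0, 0.244 and 0.617 CPM in lean mice, with no overlap (3.34 ± 0.51, adjusted p = 8.48e-06). At 6 weeks it was still higher (1.599 ± 0.48, adjusted p = 0.0349), and at 12 weeks it was not called (1.22, adjusted p = 0.0782). Cxcl2, its neighbour on chromosome 5 with the same motif, was called at 6 and 12 weeks, by 3.15 ± 0.94 (adjusted p = 0.0328) and 2.63 ± 0.92 (adjusted p = 0.0456), from medians of 1.30 and 0.971 CPM in regression mice against 0.147 and 0.140 CPM in lean mice. Their receptor Cxcr2 had too few counts in eWAT to be tested. Of 3 neutrophil markers tested 1 was higher at each of the 4 times.

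Cxcl9, Cxcl10 and Cxcl11, the interferon-induced ligands of Cxcr3, were not called higher at any time. Cxcl9 had 34.4, 35.4, 34.2, 107 and 22.9 CPM in obese replicates 1 to 5, against 28.6, 38.2 and 55.1 CPM in lean mice (0.22, adjusted p = 0.641), and replicate 4 alone stood above lean. Cxcl10 had log2 fold changes of 0.25, 0.01, -0.19 and 0.40 at the 4 times, none of them called. Cxcl11 was lower at 2 weeks (-1.09 ± 0.38, adjusted p = 0.0232) and at 6 weeks, when it had 0.453, 0.767 and 1.31 CPM in regression mice against 1.57, 1.91 and 2.52 CPM in lean mice (-1.30 ± 0.37, adjusted p = 0.026). Its annotation is a polymorphic pseudogene with 41.7% of its exon length shared with Gm2673, so its reads are uncertain. The receptor Cxcr3, carried by effector T cells and natural killer cells, had 1.85, 3.32, 3.73, 16.8 and 3.78 CPM in obese replicates 1 to 5, against 1.03, 1.88 and 2.21 CPM in lean mice (1.74 ± 0.49, adjusted p = 0.00819). Obese replicate 4 stood far above the rest, and without it the log2 fold change was 0.86 and was not called. Cxcr3 was higher at 2 weeks with no overlap (1.31 ± 0.47, adjusted p = 0.0252), and at 12 weeks, when it ran from 1.84 over 12.9 to 24.4 CPM in regression mice against 1.39, 3.21 and 3.60 CPM in lean mice (2.02 ± 0.47, adjusted p = 0.00332).

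Cxcl16, a membrane-bound ligand of macrophages and dendritic cells, and its receptor Cxcr6 of T cells moved in the same direction. Cxcl16 had 18.1, 35.5, 23.4, 49.8 and 17.2 CPM in obese replicates 1 to 5, against 10.7, 13.0 and 19.98 CPM in lean mice, with replicates 1 and 5 inside the lean range (0.99 ± 0.32, adjusted p = 0.0209). Its log2 fold changes were 1.33 ± 0.31 at 2 weeks (adjusted p = 0.000921), 1.06 ± 0.31 at 6 weeks (adjusted p = 0.0302) and 1.09 ± 0.31 at 12 weeks (adjusted p = 0.0128). Of the Cxcl16 exons 18.3% is shared with Zmynd15. Cxcr6 was called in obese mice (1.379 ± 0.48, adjusted p = 0.0314), at 2 weeks (1.34 ± 0.46, adjusted p = 0.0215) and at 12 weeks, when it ran from 1.73 over 9.56 to 13.7 CPM in regression mice against 1.34, 2.55 and 3.16 CPM in lean mice (1.67 ± 0.45, adjusted p = 0.0103). Ccl22, a dendritic cell and macrophage ligand of Ccr4, had 2.18, 5.87, 1.80, 7.04 and 2.33 CPM in obese replicates 1 to 5, against 0.5684, 0.954 and 1.35 CPM in lean mice, and no values overlapped (2.02 ± 0.60, adjusted p = 0.0118). Its log2 fold changes were 1.89 ± 0.58, 2.71 ± 0.61 and 2.35 ± 0.58 at 2, 6 and 12 weeks, each called, while Ccr4 had too few counts in eWAT to be tested.

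**Figure D2:**
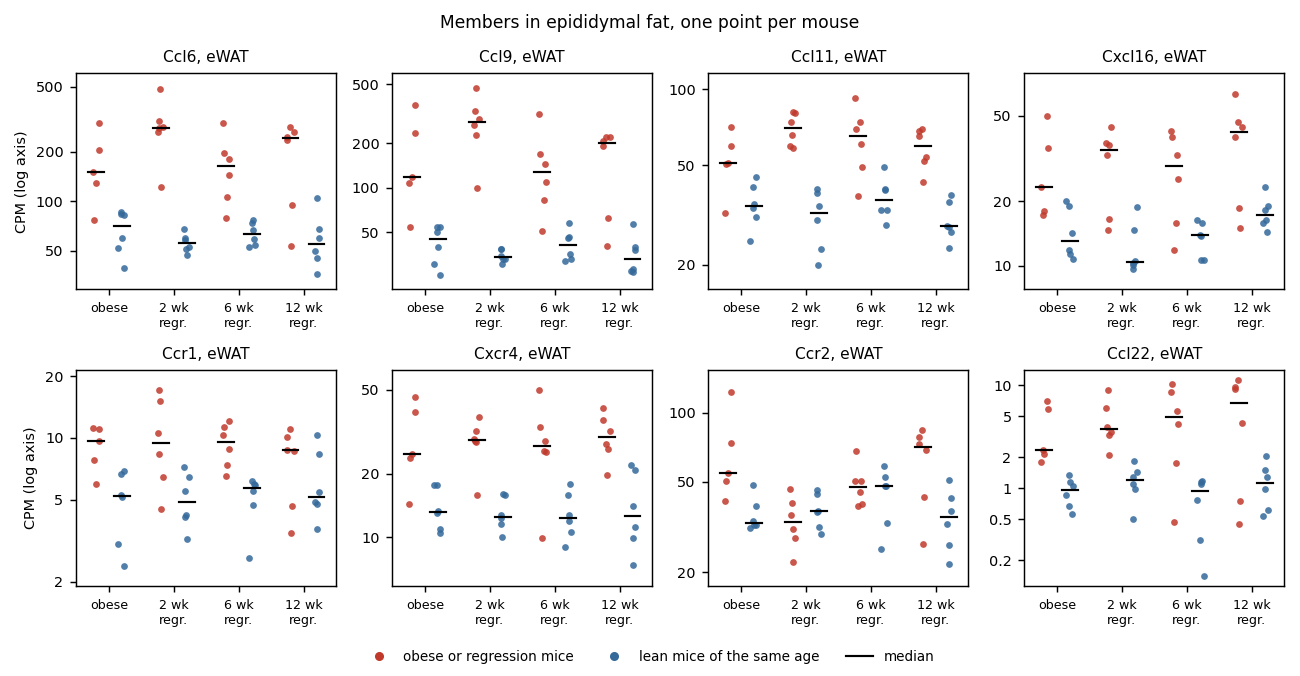
CPM in eWAT of Ccl6, Ccl9, Ccl11, Cxcl16, Ccr1, Cxcr4, Ccr2 and Ccl22 on log axes, by time, with obese or regression mice left of the lean mice of the same age; points are mice and bars are group medians. Ccl9 in obese mice lies between 54.7 and 360.5 CPM, above the highest lean mouse at 54.3 CPM, and Ccr2 in regression mice at 2 weeks lies among the lean mice.

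Ccr1, the receptor of Ccl6 and Ccl9 on myeloid cells, had 5.99, 9.63, 11.2, 11.04 and 7.78 CPM in obese replicates 1 to 5, against 2.39, 5.21 and 6.93 CPM in lean mice, with replicate 1 inside the lean range. It was called in obesity (0.89 ± 0.31, adjusted p = 0.0335) and at 2 weeks (1.03 ± 0.30, adjusted p = 0.00712). At 2 weeks Ccr1 ran from 4.54 over 9.43 to 17.2 CPM in regression mice, against 3.23, 4.88 and 7.19 CPM in lean mice, and the groups overlapped.

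Ccr2, the receptor that lets monocytes enter tissue, was higher in obesity and at 12 weeks. It had 54.8, 74.0, 41.1, 124 and 50.2 CPM in obese replicates 1 to 5, against 31.2, 32.9 and 48.1 CPM in lean mice, with replicate 3 inside the lean range (0.93 ± 0.25, adjusted p = 0.00581). At 2 weeks it ran from 22.3 over 33.4 to 46.3 CPM in regression mice, against 29.3, 37.0 and 45.8 CPM in lean mice, and at 12 weeks from 26.6 over 71.0 to 84.5 CPM against 21.8, 34.9 and 50.9 CPM. The groups lay on top of each other at 2 weeks (-0.15, adjusted p = 0.692), when its ligands Ccl2 and Ccl7 were called higher, while at 12 weeks 4 of the 6 regression mice stood above the highest lean mouse (0.83 ± 0.24, adjusted p = 0.0164). Cxcr4, the receptor of Cxcl12 on most leukocytes, had 24.9, 46.4, 14.4, 39.2 and 23.9 CPM in obese replicates 1 to 5, against 10.5, 13.2 and 17.8 CPM in lean mice. One obese mouse, replicate 3, lay within the lean range (1.10 ± 0.28, adjusted p = 0.00413), and Cxcr4 differed by 1.11 ± 0.28, 1.14 ± 0.28 and 1.10 ± 0.27 at 2, 6 and 12 weeks. Cxcl12 itself was called at 2 weeks alone, with 272, 379.7 and 489.7 CPM in regression mice against 225, 274 and 326 CPM in lean mice (0.41 ± 0.14, adjusted p = 0.0162).

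Receptors of dendritic cells and lymphocytes were called from low levels. Ccr7, which guides mature dendritic cells and naive T cells to lymph nodes, had 0.980, 3.43, 3.04, 13.6 and 2.22 CPM in obese replicates 1 to 5, against 0.687, 1.03 and 3.55 CPM in lean mice, and only replicate 4 stood above lean (1.67 ± 0.60, adjusted p = 0.0388). It was higher at 2 weeks with no overlap (1.92 ± 0.61, adjusted p = 0.0121) and at 12 weeks (1.83 ± 0.58, adjusted p = 0.0284). Xcr1, the receptor of cross-presenting dendritic cells, was higher in obesity (1.54 ± 0.49, adjusted p = 0.018) and at 12 weeks (1.82 ± 0.47, adjusted p = 0.00738). Ccr6, found on B cells and some T cells, ran from 0 over 1.65 to 5.72 CPM in regression mice at 12 weeks, against 0, 0.132 and 0.430 CPM in lean mice (3.56 ± 1.05, adjusted p = 0.0179), while its ligand Ccl20 stayed below the level set for members. Cxcr5, the B cell receptor of Cxcl13, was called at 2 weeks alone (1.61 ± 0.60, adjusted p = 0.034). The 9 lymph node B cell markers summed to over 100 CPM in 4 eWAT libraries, obese replicate 4 (111 CPM), regression replicate 5 at 6 weeks (144 CPM) and regression replicates 2 and 5 at 12 weeks (121 and 105 CPM), and their part in these values was not tested.

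Few members were lower in obese eWAT. Ccr10, the receptor of the epithelial ligands Ccl27a and Ccl28, had 2.29, 2.32, 2.90, 2.73 and 3.33 CPM in obese replicates 1 to 5, against 2.70, 5.30 and 9.55 CPM in lean mice, and the obese mice lay at or below the low end of the lean range (-1.05 ± 0.30, adjusted p = 0.00793). At 2 weeks it ran from 0 over 2.97 to 4.46 CPM in regression mice, against 5.45, 6.78 and 8.71 CPM in lean mice, without overlap (-1.22 ± 0.28, adjusted p = 0.000717), and at 6 and 12 weeks its log2 fold changes were -0.17 and -0.18, neither called. Ccl25, known as a ligand of Ccr9 in thymus and gut, had 1.52, 0.664, 0.830, 1.89 and 1.44 CPM in obese replicates 1 to 5, against 2.00, 2.73 and 4.09 CPM in lean mice, all obese mice below all lean mice (-1.16 ± 0.35, adjusted p = 0.0137). Of the atypical receptors Ackr1, which venules use to bind and carry chemokines, was higher in obesity (0.65 ± 0.19, adjusted p = 0.0114), at 13.8, 9.63, 14.7, 16.4 and 11.9 CPM against 6.18, 8.63 and 10.3 CPM in lean mice, while 25.7% of its exon length is shared with Cadm3. The scavengers Ackr2, Ackr3 and Ackr4 were not called at any time in eWAT.

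Ccl28, an epithelial ligand of Ccr10, varied widely among mice of the same group. It ran from 1.05 over 19.7 to 34.7 CPM in obese mice against 1.79, 18.7 and 74.1 CPM in lean mice, and at 12 weeks from 0.679 over 1.82 to 46.0 CPM in regression mice against 11.6, 42.7 and 70.1 CPM in lean mice. The 2 groups at 12 weeks overlapped and the difference was not called (-2.29, adjusted p = 0.137). Cx3cl1, the membrane-bound ligand of Cx3cr1, ran at 12 weeks from 9.84 over 17.2 to 42.7 CPM in regression mice against 18.5, 41.8 and 49.8 CPM in lean mice (-0.96, adjusted p = 0.0818). Its receptor Cx3cr1, a gene of monocytes and macrophages, was not called at any time, and at 12 weeks it ran from 1.51 over 17.0 to 33.4 CPM in regression mice against 3.59, 7.52 and 8.51 CPM in lean mice (1.37, adjusted p = 0.077).

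In eWAT the same few mice gave the highest or lowest values of many members in obesity and at 6 and 12 weeks, and less so at 2 weeks. The members were called with these same mice in the fit. Such ranks were not counted over all genes called, so they are not shown to be particular to the family. Obese replicate 4 was the highest of the 5 obese mice in 16 of the 19 members called higher. Its 7 macrophage markers summed to 2987 CPM, against 706 to 1935 CPM in the other obese mice, and its 6 T cell markers to 67.7 CPM against 5.01 to 14.9 CPM. At 12 weeks regression replicates 3 and 6 were the lowest pair in 19 of the 19 members called higher, and their macrophage markers summed to 611 and 764 CPM against 2058 to 3429 CPM in the other 4. At 6 weeks replicate 4 was the lowest in 10 of 11 members, with a macrophage sum of 682 CPM, and replicate 6 the highest in 8 of 11, with 3008 CPM. At 2 weeks no mouse was the highest in more than 5 of the 19 members called higher, and replicate 1 was the lowest in 8 of them, with a macrophage sum of 907 CPM against 1523 to 2785 CPM in the other 5. All 7 macrophage markers were called higher at each of the 4 times, with median log2 fold changes of 1.66, 1.99, 1.69 and 2.15. The sums ran from 706 over 1126 to 2987 CPM in obese mice against 424.1, 484 and 575 CPM in lean mice, and from 611 over 2468 to 3429 CPM at 12 weeks in regression mice against 345, 512 and 851 CPM in lean mice. T cell markers were called higher in 3, 2, 0 and 6 of 6 at the 4 times. In whole tissue, more cells of a type and more RNA per cell cannot be told apart, and the part of these cell markers in the chemokine values was not tested.

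The change of a difference since the obesity time was tested in the same fit. From obesity to 2 weeks the increase of Cxcl1 over lean grew by 2.41 ± 0.71 on the log2 scale (adjusted p = 0.035). It was the only one of the 43 members called higher, against 2.1% of all genes, and without the 3 libraries with epididymal duct markers it was 2.28 and not called. No member was called lower by edgeR, while DESeq2 called 2 higher and 2 lower, and 4 were lower at an unadjusted p under 0.05. From obesity to 12 weeks edgeR and DESeq2 called 0 of the 43 members, against 2.29% of all genes by edgeR, and 4 had an unadjusted p under 0.05. That no change was called at 12 weeks does not show that the differences were equal.

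In iWAT single members were called in obesity and at 2 weeks, while the count for the family in obesity was near that of all genes. Of 46 members tested 9 were higher and 3 lower in obese than in lean iWAT, against 14.6% and 15.5% of the 13899 genes tested. The share called higher was not far above that of all genes, and the share called lower was below it. After 2 weeks 9 were higher and 4 lower, against 9.43% and 9.35%. After 6 weeks 1 was higher, against 0.54%, and none lower by edgeR or DESeq2 or at an unadjusted p under 0.05. After 12 weeks 0 were called by edgeR or DESeq2, against 0.0432% of all genes by edgeR, and 3 had an unadjusted p under 0.05. The median log2 fold change of the members was 0.61, 0.15, -0.02 and 0.09 at the 4 times, with that of all genes between -0.02 and 0.04. Without obese replicate 1 the count in obesity was 7, and without regression replicate 1 or lean replicate 4 the count at 2 weeks was 8. In replicates 4 to 6 alone, with obese replicates 4 and 5 as the obese mice, 5, 9, 0 and 0 members were called. In replicates 1 to 3 alone the counts were 11, 4, 0 and 0. Here too the shares of all genes called in the smaller fits are not given. No called member changed sign, with Ccl19 and Ccr9 at 2 weeks not fitted in one of these 2 sets. By class, ligands called higher were 6, 7, 1 and 0, receptors 0, 1, 0 and 0 and atypical receptors 3, 1, 0 and 0.

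Ccl11 was the one iWAT member higher at 3 times. It had 67.1, 65.5, 94.1, 71.2 and 68.9 CPM in obese replicates 1 to 5, against 36.7, 50.3 and 64.3 CPM in lean mice, and every obese mouse stood above every lean mouse (0.54 ± 0.14, adjusted p = 0.00356). At 2 weeks it ran from 89.8 over 96.6 to 132 CPM in regression mice against 42.9, 51.8 and 63.3 CPM in lean mice, and at 6 weeks from 58.1 over 64.7 to 84.7 CPM against 36.9, 40.7 and 53.2 CPM, both without overlap (1.01 ± 0.14, adjusted p = 2.88e-06, and 0.70 ± 0.14, adjusted p = 0.00414). At 12 weeks it ran from 39.7 over 47.3 to 66.4 CPM against 33.8, 37.7 and 49.1 CPM and was not called (0.38, adjusted p = 0.199). Ccl24, the other eotaxin, was higher in obesity (0.62 ± 0.23, adjusted p = 0.0381), at 14.7, 15.7, 9.38, 13.0 and 14.02 CPM against 4.94, 7.98 and 14.3 CPM in lean mice.

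The myeloid ligands were higher in obese iWAT and again at 2 weeks. Ccl6 had 419.9, 127, 485, 216 and 137 CPM in obese replicates 1 to 5, against 62.5, 124 and 181 CPM in lean mice, so replicates 2 and 5 lay within the lean range (1.17 ± 0.36, adjusted p = 0.0113). Ccl6 ran at 2 weeks from 253 over 357 to 1123 CPM in regression mice, against 117, 136 and 188 CPM in lean mice, with no overlap (1.73 ± 0.35, adjusted p = 0.000568). Ccl9 differed by 1.29 ± 0.41 in obesity (adjusted p = 0.0143) and by 1.85 ± 0.40 at 2 weeks (adjusted p = 0.00114), when it ran from 164 over 248 to 843 CPM against 74.9, 84.0 and 163 CPM. At the later times neither was called. Ccr1, their receptor, was higher at 2 weeks (1.12 ± 0.38, adjusted p = 0.0351), and without the 7 libraries with lymph node markers it was not called (0.84, adjusted p = 0.213). Of 7 macrophage markers 6, 2, 0 and 0 were higher at the 4 times, with median log2 fold changes of 1.16, 0.95, 0.21 and 0.29. Of 4 lipid-associated macrophage markers 4, 1, 0 and 0 were higher, with medians of 1.57, 0.88, -0.05 and 0.41. The macrophage sums had a median of 1543 CPM in obese mice against 840 CPM in lean mice. At 2 weeks it was 1752 CPM in regression mice against 1308 CPM in lean mice. For the lipid-associated markers the medians were 155 against 99.2 CPM in obesity and 244 against 119 CPM at 2 weeks. The part of these markers in the ligand values was not tested.

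Ccl2 and Ccl7 had larger differences at 2 weeks than most iWAT members. Ccl2 had 24.5, 9.83, 19.7, 23.0 and 5.63 CPM in obese replicates 1 to 5, against 3.01, 4.46 and 18.3 CPM in lean mice (1.31 ± 0.51, adjusted p = 0.0455). At 2 weeks it ran from 9.43 over 32.6 to 66.8 CPM in regression mice against 3.26, 4.27 and 13.8 CPM in lean mice, and the groups overlapped through 1 lean mouse (2.65 ± 0.51, adjusted p = 0.000319). Ccl7 ran from 6.11 over 65.5 to 88.5 CPM against 2.71, 7.02 and 15.8 CPM at 2 weeks (2.87 ± 0.58, adjusted p = 0.000565) and was not called in obesity (0.98, adjusted p = 0.197). Ccr2 was not called at any time in iWAT, with log2 fold changes of 0.65, -0.03, 0.07 and 0.47. From obesity to 12 weeks the difference of Ccl2 fell by 2.46 on the log2 scale (SE 0.72, adjusted p = 0.0365), and at 12 weeks it ran from 2.02 over 3.96 to 7.05 CPM in regression mice against 2.47, 4.44 and 30.1 CPM in lean mice. Lean replicate 5 at 28 weeks of age (18.3 CPM) and lean replicate 4 at 12 weeks (30.1 CPM) were the high lean values, and the second of these is a library with lymph node B cell markers (327.5 CPM). Without the 7 such libraries the change of Ccl2 was -1.59 ± 0.73 and was not called (adjusted p = 0.21).

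The neutrophil chemoattractants were called in iWAT at 2 weeks and at no other time. Cxcl1 ran from 0.707 over 2.90 to 7.01 CPM in regression mice against 0, 0.338 and 0.720 CPM in lean mice, the lowest regression mouse just below the highest lean one (3.44 ± 0.64, adjusted p = 0.000207). Cxcl2 ran from 0.750 over 1.99 to 5.04 CPM against 0.129, 0.244 and 1.56 CPM (2.28 ± 0.75, adjusted p = 0.0291), and without the 7 libraries with lymph node markers it was not called (2.02, adjusted p = 0.0945). Cxcl5, a further ligand of Cxcr2 that had too few counts to be tested, had 26.9, 0.308, 4.38, 0, 1.18 and 0 CPM in regression replicates 1 to 6, and at most 0.270 CPM in lean mice of that age. Cxcl3, also untested, had 10.6, 0.154, 1.88, 0, 0.354 and 0 CPM in the same mice, so replicates 1 and 3 were the high ones for both. The 6 neutrophil markers summed to 12.2, 28.6 and 74.6 CPM in regression mice at 2 weeks (lowest, median, highest), against 6.71, 14.3 and 20.4 CPM in lean mice, and 2 of the 3 tested were higher. In regression replicates 1 to 6 these sums were 74.6, 12.2, 29.4, 41.5, 27.8 and 16.3 CPM. The part of the neutrophil markers in the ligand values was not tested.

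**Figure D3:**
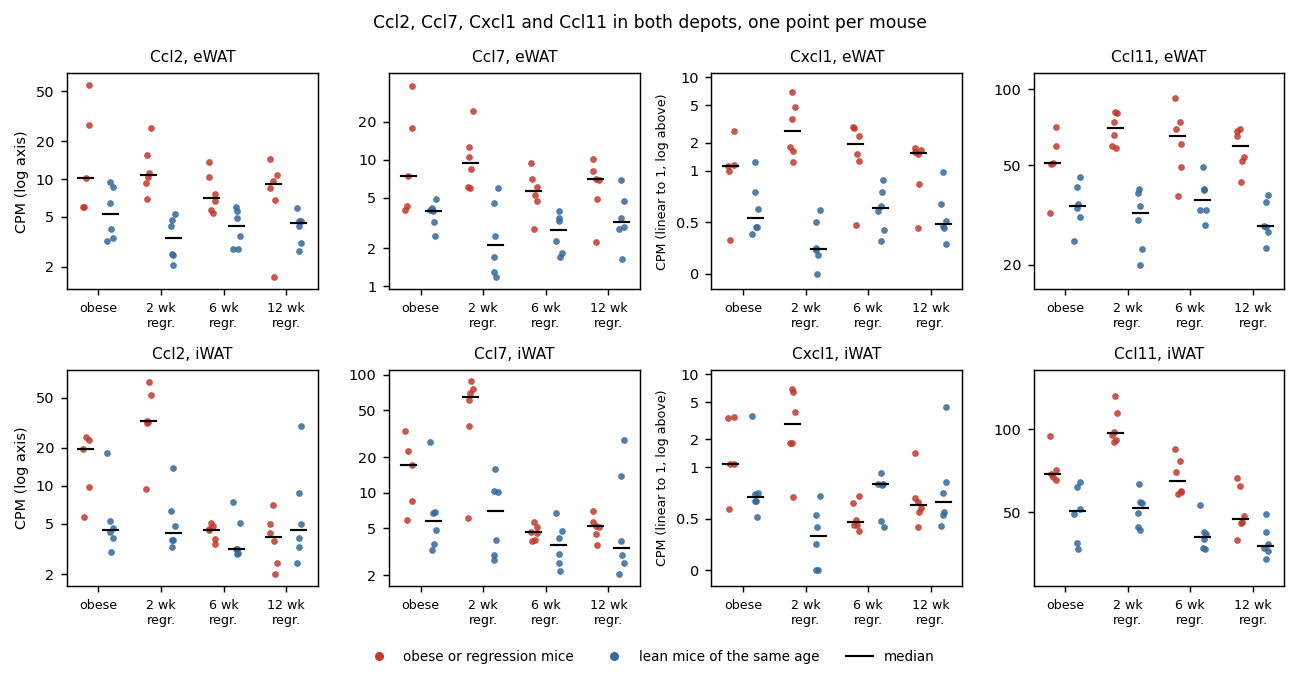
CPM of Ccl2, Ccl7, Cxcl1 and Ccl11 in eWAT and iWAT by time, with obese or regression mice left of the lean mice of the same age; points are mice, bars are medians, and Cxcl1 is drawn on an axis that is linear near 0 and log above. Ccl11 in iWAT at 2 weeks lies between 89.8 and 132 CPM in regression mice and at most at 63.3 CPM in lean mice.

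The atypical receptors and homeostatic members made up most of the other iWAT changes in obesity. Ackr3, which takes up Cxcl12, had 134, 134, 186, 118 and 136 CPM in obese replicates 1 to 5, against 43.4, 73.6 and 89.9 CPM in lean mice, without overlap (1.02 ± 0.19, adjusted p = 0.000117). Its ligand Cxcl12 was lower, at 243, 308, 282, 297 and 265 CPM against 329, 371 and 395.5 CPM, also without overlap (-0.38 ± 0.13, adjusted p = 0.0229). Ackr1 had 31.6, 24.7, 49.0, 25.0 and 27.1 CPM in obese replicates 1 to 5, against 12.2, 19.9 and 22.2 CPM in lean mice, all obese mice above all lean mice (0.80 ± 0.17, adjusted p = 0.000342). Ackr2, a scavenger of inflammatory CC ligands, was higher in obesity (0.87 ± 0.26, adjusted p = 0.0102) and at 2 weeks (0.85 ± 0.25, adjusted p = 0.0159), the second of these not called without the lymph node libraries (0.77, adjusted p = 0.0773). Cx3cl1 was higher in obesity, at 15.2, 15.6, 13.99, 12.9 and 8.88 CPM against 4.48, 7.63 and 10.8 CPM (0.73 ± 0.20, adjusted p = 0.00437). From obesity to 12 weeks the difference of Ackr3 fell by 1.27 on the log2 scale (SE 0.27, adjusted p = 0.00339).

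Ccr10 and Ccl25 were lower in obese iWAT, as in obese eWAT. Ccr10 had 3.00, 3.56, 2.92, 3.17 and 4.94 CPM in obese replicates 1 to 5, against 5.25, 7.84 and 13.4 CPM in lean mice, with no overlap (-1.29 ± 0.24, adjusted p = 0.000103). Ccl25 had 0.916, 0.926, 1.24, 0.890 and 1.09 CPM, against 2.79, 3.19 and 4.31 CPM in lean mice, and no values overlapped (-1.69 ± 0.32, adjusted p = 0.000111). Ccr10 was lower at 2 weeks too (-1.04 ± 0.23, adjusted p = 0.00137), and its difference from lean mice rose by 1.22 ± 0.33 from obesity to 12 weeks (adjusted p = 0.0206), when it ran from 4.88 over 7.59 to 12.3 CPM in regression mice against 5.14, 8.95 and 10.6 CPM in lean mice. Of the changes from obesity to 12 weeks 1 of 46 members was called higher and 2 lower, against 2.31% and 2.46% of all genes. From obesity to 2 weeks 0 of 46 were called by edgeR, against 3.96% of all genes, while DESeq2 called 2 higher and 12 had an unadjusted p under 0.05.

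Lymph node chemokines were set apart in iWAT, where a node lies in the fat pad. The 9 B cell markers summed to 1252 CPM in regression replicate 2 at 12 weeks, 1022 and 269 CPM in lean replicates 2 and 4 at 2 weeks, 432.7 and 327.5 CPM in lean replicates 6 and 4 at 12 weeks, 272 CPM in lean replicate 5 at 6 weeks and 185 CPM in regression replicate 4 at 2 weeks. In the other 40 iWAT libraries they summed to 72.6 CPM or less. Ccr7 ran from 7.65 to 136 CPM in those 7 libraries and from 0.665 to 5.86 CPM in the other 40. Ccr6 ran from 6.64 to 32.3 CPM against 0 to 1.43 CPM, Cxcr5 from 17.2 to 84.7 CPM against 0.646 to 7.41 CPM, and Ccl19, the stromal ligand of Ccr7, from 0.970 to 19.7 CPM against 0 to 0.6252 CPM. The ranges of these 4 members did not overlap. Cxcl13, the B cell follicle ligand of Cxcr5, did not separate the libraries, with 27.6 to 83.6 CPM against 3.85 to 166 CPM, nor did Ccl11, with 36.9 to 97.7 CPM against 33.8 to 132 CPM. Ccl5 was above the range of the other 40 in 6 of the 7 libraries and Ccl22, Ccr4, Ccr8, Ccr9, Cxcr6 and Xcr1 in 5 of them.

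**Figure D4:**
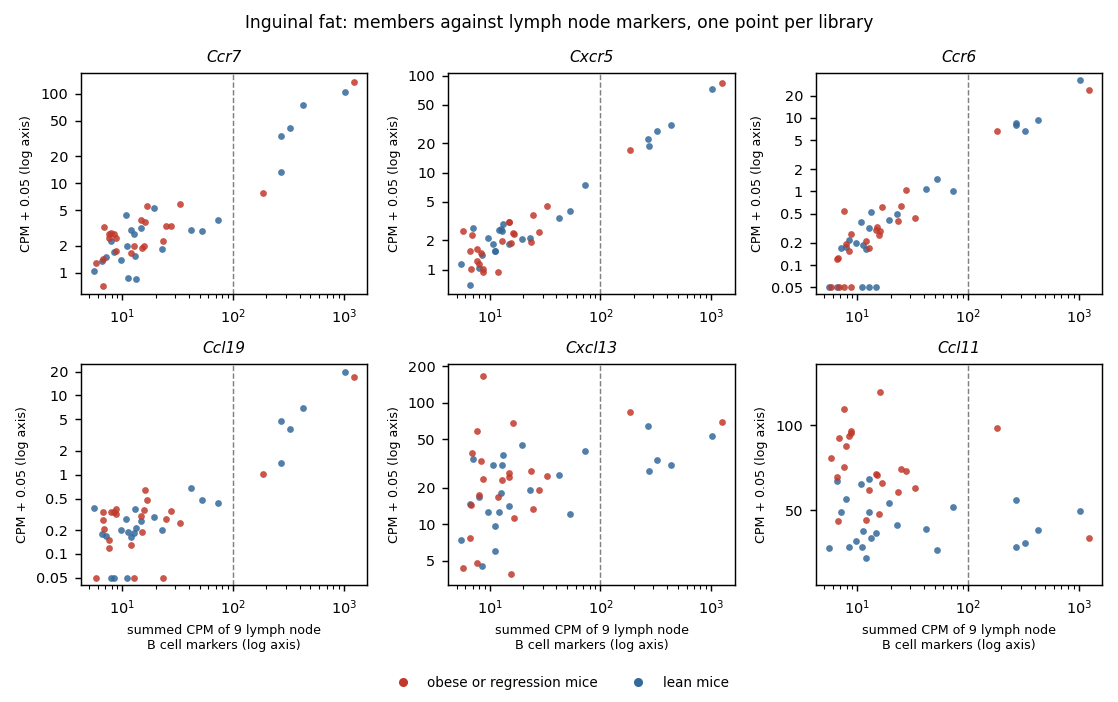
CPM plus 0.05 of Ccr7, Cxcr5, Ccr6, Ccl19, Cxcl13 and Ccl11 in the 47 iWAT libraries on log axes, against the summed CPM of 9 lymph node B cell markers; the dashed line is at 100 CPM. Ccr7 lies at 7.65 to 136 CPM right of the line and at 5.86 CPM or less left of it, while Ccl11 spans like values on both sides.

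The members called lower at 2 weeks in iWAT, other than Ccr10, were among these. Ccl19 ran from 0.0695 over 0.303 to 0.970 CPM in regression mice against 0, 0.387 and 19.7 CPM in lean mice (-3.47 ± 1.18, adjusted p = 0.0343), Ccr9 from 0.108 over 0.262 to 0.825 CPM against 0.129, 0.727 and 6.76 CPM (-2.67 ± 0.87, adjusted p = 0.0271) and Xcr1 from 0.698 over 1.31 to 2.59 CPM against 1.16, 2.07 and 17.0 CPM (-1.60 ± 0.59, adjusted p = 0.0495). Of the Ccr9 exon length 21.5% is shared with other genes, so its reads are uncertain. The regression mice lay within the lean range or near its low end, and the lean range was stretched upwards by the 2 lean libraries with B cell markers. With the B cell signal as a term in the fit none of these 3 was called lower by edgeR, and without the 7 libraries Xcr1 was not called (-0.38, adjusted p = 0.56) and Ccl19 and Ccr9 had too few counts to be tested. Without the 7 libraries 7 members were called higher and 1 lower at 2 weeks, and Ccl2 (2.64), Ccl6 (1.72), Ccl7 (3.08), Ccl9 (1.79), Ccl11 (1.02) and Cxcl1 (4.39) stayed called, a choice made after the data were seen. In obesity 13 were then higher and 3 lower, with Cxcl14, Cxcl16, Cxcr3 and Cxcr4 added, although no obese or lean library of that time was left out. The shares of all genes called without the 7 libraries are not given, so these counts cannot be set against all genes.

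Between the depots of the same lean mice most members called were lower in eWAT than in iWAT. In a fit of all 94 libraries with mouse as a block, 3 of 47 members were higher and 25 lower in eWAT, against 28.1% and 31.2% of the 14749 genes tested, and the median log2 difference was -0.60 for members and -0.02 for all genes. Ackr1, which ran from 6.18 over 10.5 to 15.9 CPM in eWAT and from 12.2 over 20.8 to 31.2 CPM in iWAT, was lower in eWAT in all 24 lean mice (-1.12 ± 0.07, adjusted p = 5.11e-17). Cxcl14, a ligand made by fibroblasts and epithelia whose receptor is not settled, was lower in eWAT in all 24 as well, from 3.79 over 6.70 to 19.7 CPM in eWAT and from 17.3 over 42.9 to 119 CPM in iWAT (-2.84 ± 0.19, adjusted p = 2.61e-16). Ccl8 was lower in eWAT in 22 of 24 (-2.45 ± 0.27, adjusted p = 2.29e-10), Ackr2 in 23 (-0.84 ± 0.10, adjusted p = 1.86e-09), Ccl11 in 23 (-0.53 ± 0.07, adjusted p = 1.64e-08) and Cxcl12 in 22 (-0.38 ± 0.05, adjusted p = 2.22e-09). The lymph node members Ccr7 (-1.76 ± 0.40), Ccr6 (-2.27 ± 0.64), Cxcr5 (-1.06 ± 0.33) and Cxcl13 (-2.33 ± 0.39) were also lower in eWAT, and 5 of the 7 libraries with B cell markers were lean. Without both libraries of the 7 mice concerned, an alternative added after the data were seen, Ccr7 (-0.80, adjusted p = 0.0179) and Cxcl13 (-2.33, adjusted p = 9.66e-05) were still called lower in eWAT, and Ccr6 (-0.71, adjusted p = 0.357) and Cxcr5 (-0.29, adjusted p = 0.361) were not. Ccl22, Ccr2, Ccr9 and Xcr1 lost their calls as well, and Xcl1 (-1.04 in all 94 libraries, adjusted p = 0.021) had too few counts to be tested. Cx3cr1 (0.71), Cxcl16 (0.61) and Cxcr4 (0.65) were then called higher in eWAT, so that 6 members were higher and 18 lower. The shares of all genes called in that fit are not given. Of the Xcl1 exon length 18.7% is shared with Gm20743, so its reads are uncertain.

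The 3 members called higher in lean eWAT in all 94 libraries were Cx3cl1, Ccl28 and the scavenger Ackr4, which takes up Ccl19 and Ccl25. Cx3cl1 ran from 7.69 over 27.6 to 49.8 CPM in eWAT and from 4.48 over 10.5 to 16.5 CPM in iWAT and was higher in eWAT in all 24 mice (1.15 ± 0.15, adjusted p = 7.91e-09). Ccl28 ran from 0.818 over 14.4 to 74.1 CPM in eWAT and from 0.246 over 1.28 to 2.84 CPM in iWAT, higher in eWAT in 17 of 24 (3.13 ± 0.48, adjusted p = 5.65e-07). Ackr4 was higher in 20 of 24 (0.57 ± 0.16, adjusted p = 0.00176). Per kilobase of exon the lean levels were led in eWAT by Ccl6 at 34.5 ± 9.05 CPM (SD, n = 24), Cxcl12 at 32.7 ± 5.29, Ccl11 at 30.9 ± 6.72 and Ackr3 at 25.6 ± 3.82. Neighbours among these 4 lay within their spread, and the next member, Cxcl9 at 13.5 ± 3.54, lay below it. In iWAT they were led by Ccl6 at 61.4 ± 23.2, Ccl8 at 44.9 ± 43.4, Ccl11 at 42.3 ± 8.45 and Cxcl12 at 40.4 ± 5.15, again within their spread.

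**Figure D5:**
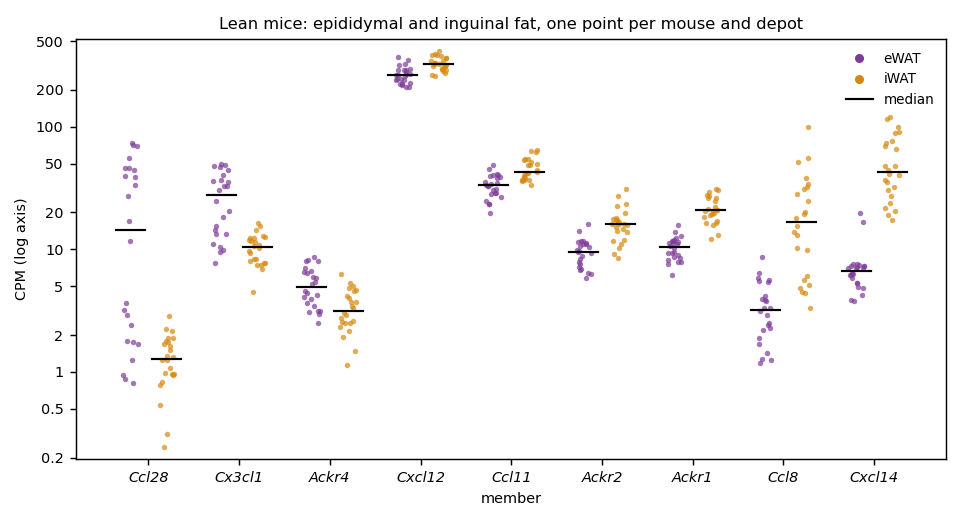
CPM of 9 members in the eWAT (left) and iWAT (right) of each of the 24 lean mice on log axes, each point 1 mouse and the bars medians. Ackr1 and Cxcl14 are lower in eWAT in all 24 mice and Cx3cl1 is higher in eWAT in all 24.

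Whether the difference from lean mice itself differed between depots was tested in the same fit. In obesity 0 of 47 members were called by edgeR, against 1.31% of all genes, with 6 at an unadjusted p under 0.05 and no other tool run. At 2 weeks 3 were called higher and 1 lower, against 3.78% and 4.53%. The difference from lean was higher in eWAT than in iWAT for Cxcr3 (1.75 ± 0.46, adjusted p = 0.0135), Cxcr6 (2.20 ± 0.60, adjusted p = 0.0165) and Cxcl12 (0.49 ± 0.13, adjusted p = 0.0158) and lower for Ccl24 (-1.19 ± 0.29, adjusted p = 0.00901). With the lymph node signal as a term Cxcr3 had 1.34 and Cxcr6 1.27 and neither was called. Without both libraries of the 7 mice with lymph node markers Cxcl12 alone was called (0.54), while Cxcr3 had 1.22 (adjusted p = 0.188), Cxcr6 1.23 (adjusted p = 0.211) and Ccl24 -0.94 (adjusted p = 0.114). At 6 weeks 0 were called, against 0.556%, with 17 at an unadjusted p under 0.05, and at 12 weeks 0, against 0.0339%, with 23 at an unadjusted p under 0.05. These percentages are for the adjusted p. No share of all genes is given at the unadjusted p, so the 17 and 23 cannot be set against all genes. At 12 weeks 21 of those 23 were larger in eWAT, and Ccl6 (1.66 ± 0.47, adjusted p = 0.0829) and Ccl9 (1.81 ± 0.55, adjusted p = 0.0931) were not called. So the absence of iWAT calls at 12 weeks, beside 19 in eWAT, was not shown to be a difference between the depots.

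The remaining members were not called or not tested. In eWAT 21 of the 48 members were never called higher. Of these Ccl12, Ccl19, Ccl27a, Ccl28, Cx3cl1, Cx3cr1, Cxcl9, Cxcl10, Cxcl13, Ackr2, Ackr3 and Ackr4 were tested and called in neither direction, and Ccr1l1, Ccr4, Ccr9, Cxcr2 and Xcl1 had too few counts for the test. Cxcl13 was wide apart between mice, from 1.49 over 25.9 to 37.3 CPM in regression mice at 12 weeks against 2.18, 3.28 and 44.6 CPM in lean mice (1.13, adjusted p = 0.364). In iWAT 38 of the 51 members were never called higher. Among those called in neither direction were the 3 ligands Ccl3, Ccl4 and Ccl5, the interferon-induced Cxcl9, Cxcl10 and Cxcl11, and the receptors Ccr2, Ccr3, Cxcr3, Cxcr4 and Cxcr6. Ccl8 in iWAT had 49.9, 7.76, 142, 9.79 and 36.6 CPM in obese replicates 1 to 5, against 5.605, 19.8 and 34.0 CPM in lean mice, with obese mice both below the lean median and above the highest lean mouse (1.33, adjusted p = 0.122). Ccr1l1, Ccr8, Cxcl3, Cxcl5 and Xcl1 had too few counts for the test in iWAT.

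The clustered chemokine genes were read by their place in mm10. On chromosome 11 between 82035571 and 82116799 lie Ccl2, Ccl7, Ccl11, Ccl12 and Ccl8, of which 4, 3, 2 and 2 were higher in eWAT and 2, 3, 1 and 0 in iWAT at the 4 times. Further along, between 83525778 and 83664683, lie Ccl5, Ccl9, Ccl6, Ccl3 and Ccl4, of which 3, 3, 3 and 5 were higher in eWAT and 2, 2, 0 and 0 in iWAT. On chromosome 5 the neutrophil ligands between 90759360 and 90905938 gave 0, 1, 2 and 1 in eWAT and 0, 2, 0 and 0 in iWAT, and Cxcl9, Cxcl10 and Cxcl11 between 92321347 and 92365485 gave 0 at each time in both depots. Of all genes 14%, 18.6%, 5.49% and 10.8% were called higher in eWAT at the 4 times. In iWAT the shares were 14.6%, 9.43% and 0.54% at the first 3.

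Related genes outside the naming rule, which act on chemokine signals or on leukocyte migration, were counted as well. Of 24 such genes, a list chosen with earlier results of these data known, 23 were tested. In eWAT 17, 17, 14 and 16 were higher at the 4 times and none lower by edgeR. Of all genes in eWAT 14%, 18.6%, 5.49% and 10.8% were called higher. In iWAT 9, 6, 1 and 0 were higher and 1, 1, 0 and 0 lower. Of all genes in iWAT 14.6%, 9.43% and 0.54% were called higher at the first 3 times, and 15.5% and 9.35% lower at the first 2. Dock2, which links chemokine receptors to the cytoskeleton in leukocytes, was higher in eWAT by 2.05, 2.33, 1.71 and 2.33 on the log2 scale, each called. Ppbp, a platelet and megakaryocyte ligand of Cxcr2, was called in iWAT at 2 weeks (3.17, adjusted p = 0.00144), and was not called in eWAT.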

How the data were processed

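Raw read counts, whole numbers for each gene and library, are the values the authors deposited. Per the submitters' processing notes STAR 2.4.1c, the build mm10, R 4.2.2 and DESeq2 1.38.3 were used; the counting program, annotation and strandedness were not given in the sources used here, so reads of overlapping or near-identical genes may be uncertain. Counts were fitted here with edgeR 4.0.16 in R 4.3.3 (TMM, default filter on low counts, robust quasi-likelihood F-test, two-sided, Benjamini-Hochberg over all genes), with all 47 libraries of a depot, and for depot differences all 94 with mouse as a block, since both depots come from 1 mouse. A ± after a log2 fold change gives its SE, and printed CPM use TMM-scaled totals. DESeq2 1.42.0, RLE size factors, no filter, other terms and left-out libraries were tried, and the fit was tested on simulated data. Counts under these alternatives and at an unadjusted p are given without the share of all genes called at that setting. Ccl21 genes were not analysed here. Positions come from GENCODE M21. The precision is limited by 5 or 6 mice per group. Members and lists were chosen with earlier results of these data known. Members named are the 6 called members with the largest change and at least 2 CPM in either group per comparison, and fixed ligand and receptor sets. A member counted with the rest is not reported here.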

Additional observations from a re-analysis of the deposited data

Results flagged for a closer look

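A mouse far from the other mice of its group is marked by chance in about 1 in 20 groups of independent values. The groups here share mice, so that rate cannot be set against the count. Among 74 groups of named members, 9 held such a mouse, in each case the highest of its group. In eWAT these were Cxcr3 in obese replicate 4 at 16.8 CPM (next highest 3.78 CPM) and Ccl7 in regression replicate 3 at 2 weeks at 24.2 CPM (next 12.5 CPM). In iWAT they were Ackr3 in obese replicate 3 at 186 CPM (next 136 CPM), Ccr9 in regression replicate 5 at 2 weeks at 0.825 CPM (next 0.348 CPM), Ccl2 in lean replicate 5 at the obesity time at 18.3 CPM (next 5.25 CPM), and Ccl11 in lean replicate 3 at 6 weeks at 53.2 CPM (next 42.3 CPM). The remaining 3 were lean iWAT libraries at 2 weeks: Ccl19 in replicate 2 at 19.7 CPM (next 4.68 CPM), a library with lymph node B cell markers, and Ccl2 and Cxcl2 in replicate 1 at 13.8 CPM (next 6.35 CPM) and 1.56 CPM (next 0.444 CPM).

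Other results were marked because the difference from lean mice itself differed between times or depots in edgeR's test. From obesity to 2 weeks the difference of Cxcl1 in eWAT changed by 2.41 on the log2 scale. From obesity to 12 weeks the differences in iWAT changed by -1.27 for Ackr3, -2.46 for Ccl2 and 1.22 for Ccr10, of which that of Ccl2 was not called without the libraries with lymph node markers. At 2 weeks the difference in eWAT minus that in iWAT was -1.19 for Ccl24, 0.49 for Cxcl12, 1.75 for Cxcr3 and 2.20 for Cxcr6. Of these 4, Cxcl12 alone was called without the mice with lymph node markers in iWAT.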

How the results depend on the processing

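Under the alternatives 82 values of the named log2 fold changes kept their direction and lost the call, and none changed sign. Counts of called members moved most when fewer mice entered the fit. In replicates 4 to 6 alone (the earlier mouse numbers, with obese replicates 4 and 5 alone) the eWAT counts at 6 and 12 weeks were 0 and 0 and the iWAT counts in obesity and at 6 weeks 5 and 0. In replicates 1 to 3 alone (the later ones) the eWAT counts at the 4 times were 0, 7, 0 and 7 and the iWAT counts at 2 and 6 weeks 4 and 0. With the compared groups fitted alone, 13 eWAT members were called in obesity and 11 at 12 weeks, and 7 iWAT members at 2 weeks and 2 at 6 weeks. DESeq2 called 2 in iWAT at 6 weeks, 4 for the eWAT change from obesity to 2 weeks, 2 for that change in iWAT and 6 for the iWAT change from obesity to 12 weeks. For the change from obesity to 2 weeks in iWAT, no count filter gave 2, the mouse number series as a term 1, the lymph node signal as a term 2 and leaving out the libraries with lymph node markers 2. That last alternative, chosen after the data were seen, gave 8 in iWAT at 2 weeks. Leaving out the libraries with duct markers, also chosen after the data were seen, gave 0 for the eWAT change from obesity to 2 weeks. For the depot difference at 2 weeks the lymph node signal as a term gave 2, and leaving out both libraries of mice with lymph node markers, added after the data were seen, gave 1. Leaving out 1 mouse gave 6 to 24 in eWAT in obesity, 18 to 27 at 2 weeks, 2 to 15 at 6 weeks and 14 to 25 at 12 weeks, and in iWAT 7 to 16, 8 to 17, 1 to 1 and 0 to 0.

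The replicate numbers did not pair the diet groups (correlations of same-numbered mice between -0.596 and 0.629 over 46 values). With a replicate block 18, 23, 11 and 18 members were called in eWAT, 11, 10, 1 and 0 in iWAT, and 1 for the iWAT change from obesity to 2 weeks.

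Low counts limit the scarce members: the eWAT library of 1.32 M counts listed several of them at 0.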
